A study of Mus musculus with 27 samples.

Results

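AML cells grown from a spleen-derived primary leukaemia were compared with normal granulocyte-monocyte progenitors (GMPs). The members are samples: the 6 libraries whose column names give clone 19 and spleen, and the 9 GMP libraries, together 15 of the 27 libraries of the series. The other 12 are AML from 2 marrow-derived donors, batch 1 and batch 3, and enter only where they are named. The leukaemia was made by giving GMPs of mT/mG mice, which carry a membrane tdTomato reporter, a retrovirus (pMSCV backbone) with MLL-AF9 and GFP; sub-lethal irradiation prepared the primary recipients, and the blasts of 1 primary recipient form a batch. Batch 19 was collected from the spleen of its primary recipient, but the cells sequenced here were grown in non-conditioned secondary recipients and were sorted as DAPI- GFP+ mTomato+ cells from their tibias and femurs at full infiltration. Endosteal AML (3 libraries) came from the crushed metaphysis, the end of the bone, and central AML (3 libraries) from the flushed diaphysis, the shaft. GMPs were sorted from whole bone marrow (BM) of wild-type mice matched in age and sex, and fall into control sets A, B and C, with 3 libraries in each. A GMP label names 3 mice, while as many control mice as GMP libraries were used, and which mouse or mice a library holds is not given in the sources used here. Because batch 19 is the only spleen-derived donor, the organ of origin and the donor cannot be told apart. P-values rest on the spread among libraries within groups, pooled over all groups of a fit, GMPs among them. The spleen-derived libraries are of 1 leukaemia, so the spread between spleen-derived leukaemias is not measured. The study counts 3 biological replicates per batch, so endosteal and central libraries may come from the same animals. All 6 AML libraries were treated as independent, and p-values against GMPs and against the other batches may therefore be too small. Transduction, transplantation and the sorting gate also differ between AML and GMPs and cannot be told apart from the leukaemia itself.

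MLL-AF9 joins the chromatin-binding end of MLL to AF9, a component of the transcription elongation machinery, and the fusion keeps HOXA genes and their cofactor MEIS1 active, which maturing myeloid cells switch off. GMPs are the marrow cells that give rise to neutrophils and monocytes; they make the primary granule proteins, such as myeloperoxidase and elastase, before the secondary granule proteins of later neutrophils appear. MLL-AF9 can transform cells of this stage, and the blasts remain myeloid.

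Gene expression was measured by 3′ mRNA-seq, which reads the polyadenylated end of each transcript, and is given as CPM, counts scaled to the size of the library. The steps between low CPM values give the depth, 6.94 to 9.64 M reads in the AML libraries and 5.6 to 10.7 M in the GMP libraries. The deposited table holds 5486 genes, all with a deposited FDR under 0.05 for a contrast that is not named, and these carry 22 to 28.3% of the reads, so shares of genes below are shares of genes already selected for difference. The 4935 genes at 1 CPM or more in at least 3 of the 15 libraries were tested with limma on log2(CPM + 1), as the mean of the endosteal and central groups minus GMP. A gene is called higher or lower, and is said to have risen or fallen, where the Benjamini-Hochberg adjusted p is under 0.05 and the log2 fold change is at least 1 in size; fold changes on this scale understate the change of genes at low CPM. GMP library 9 stood apart, with 747 genes at 0 against 348 to 505 in the other GMP libraries. It was the GMP library nearest to the AML for 81 of the 247 named genes that were called. Named genes were chosen from these same values. The count was not made for other GMP libraries or over all called genes, so it does not by itself set library 9 apart. The non-coding RNA Gm42418, whose locus overlaps ribosomal RNA, ran from 1918 to 6398 CPM in AML and from 15888 to 53649 CPM in GMPs.

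Of the tested genes, 1227 (24.9%) were higher in the spleen-derived AML and 843 (17.1%) lower, 2070 (41.9%) in all. The values of the 6 AML and the 9 GMP libraries did not overlap for 1082 of the genes that rose and 670 of those that fell. Over all tested genes, called or not, 2552 of 4935 did not overlap, so a lack of overlap is common here. The median log2 fold change of all tested genes was 0.30, and the medians of gene lists below are to be read against it. Scaling moved this balance. With TMM scaling the median of all genes was 0.16 and the calls split into 995 higher and 1032 lower. With quantile normalization the median was 0.13 and the split 943 and 1077. On the CPM scale 4293 of the 4935 tested genes (86.99%) had an adjusted p under 0.05 with limma, at any fold change. The table thus lacks the unchanged majority on which such scalings rest, and which balance is right was not tested. Without library 9 the counts were 1226 and 900, and no count of a list in this text moved by more than 1, small RNAs left out. Each list's range over the alternatives covers other scalings, pseudocounts, filters, tools and left-out libraries.

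**Figure D1:**
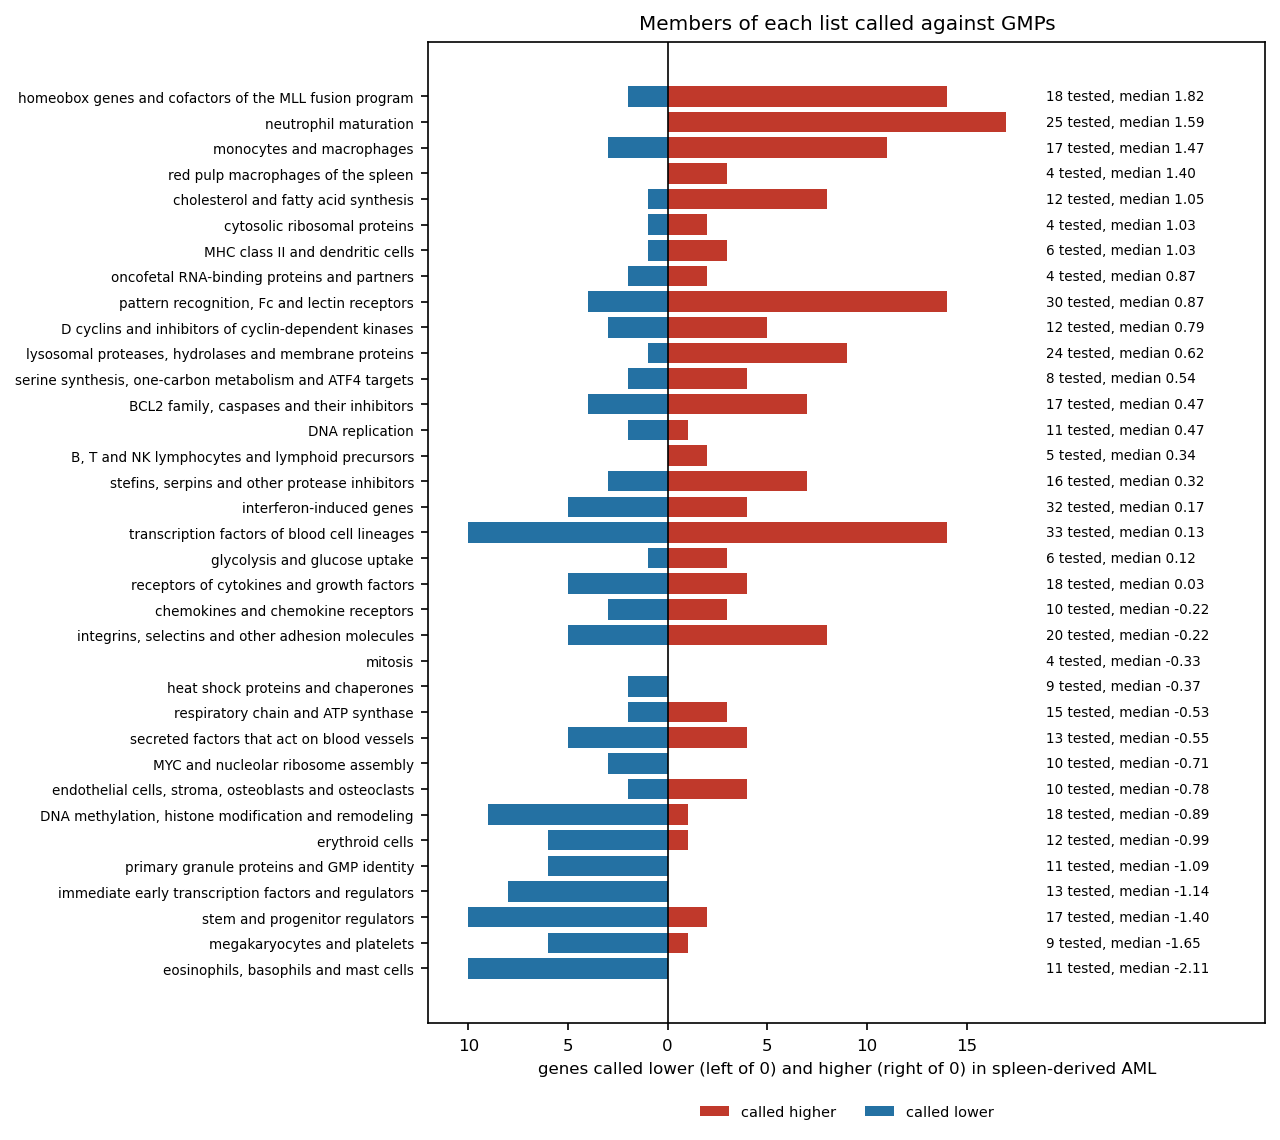
Bars give the number of members of each gene list called lower (left of 0) or higher (right of 0) in spleen-derived AML than in GMPs, with the number tested and the median log2 fold change at the right. The neutrophil list has 17 members higher and 0 lower, and the list of eosinophils, basophils and mast cells has 10 lower and 0 higher; of all tested genes 24.9% were higher and 17.1% lower.

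The largest rises and falls were picked from called genes without overlap, at a mean of 10 CPM or more in the higher group. The largest rises were in genes that GMPs hardly transcribed. Levels of a gene are given as the lowest, median and highest library. Tcf24, a bHLH transcription factor (chr1:9960163-9967932, mm10), was at 87.5, 104 and 111 CPM in AML and at 0, 0.116 and 0.57 CPM in GMPs, log2 fold change 6.44 ± 0.14 (SE), adjusted p = 4.43e-16. All AML libraries lay far above all GMP libraries. Ccdc154, a coiled-coil protein, was at 83.6, 87.1 and 107 CPM in AML and at 0, 0.163 and 0.373 CPM in GMPs, log2 fold change 6.30 ± 0.12 (SE), adjusted p = 1.48e-16. Skida1, which encodes a SKI/DACH domain protein, was at 32, 35.4 and 38.7 CPM in AML and at 0, 0 and 0.116 CPM in GMPs, log2 fold change 5.15 ± 0.11 (SE), adjusted p = 3.21e-16. The lack of overlap of the 3 genes was a condition of the choice and not a result. Skida1 was at 0 in 6 of the 9 GMP libraries.

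Genes of secreted and membrane proteins stood among the same largest rises. Col6a3, a chain of collagen VI, was at 41.3, 51.9 and 77.4 CPM in AML and at 0, 0 and 0.536 CPM in GMPs, log2 fold change 5.61 ± 0.16 (SE), adjusted p = 1.61e-14. F7, coagulation factor VII, ran from 105 to 153 CPM in AML and from 0.186 to 3.86 CPM in GMPs (log2 fold change 5.58, adjusted p = 2.90e-12). Apoc2, the activator of lipoprotein lipase, ran from 48 to 69.5 CPM in AML and from 0 to 0.815 CPM in GMPs (log2 fold change 5.26, adjusted p = 1.61e-14). All 3 products are better known from connective tissue, liver and plasma than from myeloid cells. Slc13a3, a sodium-coupled transporter of dicarboxylates, ran from 50.01 to 65.9 CPM in AML and from 0 to 0.496 CPM in GMPs (log2 fold change 5.59, adjusted p = 1.70e-15). Igf2bp3, an oncofetal RNA-binding protein, was at 42.6, 53 and 59.97 CPM in AML and at 0, 0.234 and 0.798 CPM in GMPs, log2 fold change 5.41 ± 0.16 (SE), adjusted p = 2.14e-14. Lin28a, which blocks let-7 maturation in fetal cells, ran from 14.7 to 22.6 CPM in AML and from 0.652 to 5.31 CPM in GMPs (log2 fold change 3.06, adjusted p = 5.09e-09). Both oncofetal genes were thus higher, whereas Hmga2, a let-7 target, was called lower, at 0.117 to 0.648 against 1.4 to 5.71 CPM (log2 fold change -1.32, adjusted p = 1.20e-05).

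Others among the largest rises were stefins, inhibitors of cysteine proteases that lie in a cluster on chromosome 16. Stfa1 was at 96.1, 122 and 164 CPM in AML and at 0.179, 0.456 and 1.58 CPM in GMPs, log2 fold change 6.41 ± 0.18 (SE), adjusted p = 1.61e-14. BC117090 ran from 51.3 to 83.8 CPM in AML and from 0 to 0.839 CPM in GMPs (log2 fold change 5.77, adjusted p = 1.61e-14). BC100530 ran from 56 to 108 CPM in AML and from 0.099 to 1.3 CPM in GMPs (log2 fold change 5.64, adjusted p = 3.01e-13). Stfa2 and Stfa2l1 were at 0 in all 9 GMP libraries and at 2.23 to 4.77 and 1.44 to 2.99 CPM in AML, at least 9.42-fold and 6.48-fold higher against a floor of 3 reads per library. Copies in this family are alike: 13.2% of the 75-base windows in the last 400 bases of Stfa1 transcripts, 21.8% of those of BC100530 and 20.4% of those of BC117090 also occur in transcripts of another gene, so their separate values are uncertain. A pair of serpins was lower. Serpina3g ran from 0.107 to 0.432 CPM in AML and from 12.2 to 48.2 CPM in GMPs (log2 fold change -4.34, adjusted p = 3.54e-11). Serpina3f was at 0 in all 6 AML libraries against 1.86 to 6.75 CPM in GMPs, at least 9.7-fold lower. Of the list of stefins, serpins and other protease inhibitors, 7 of 16 rose and 3 fell (median log2 fold change 0.32, range over the alternatives 0.15 to 1.39).

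**Figure D2:**
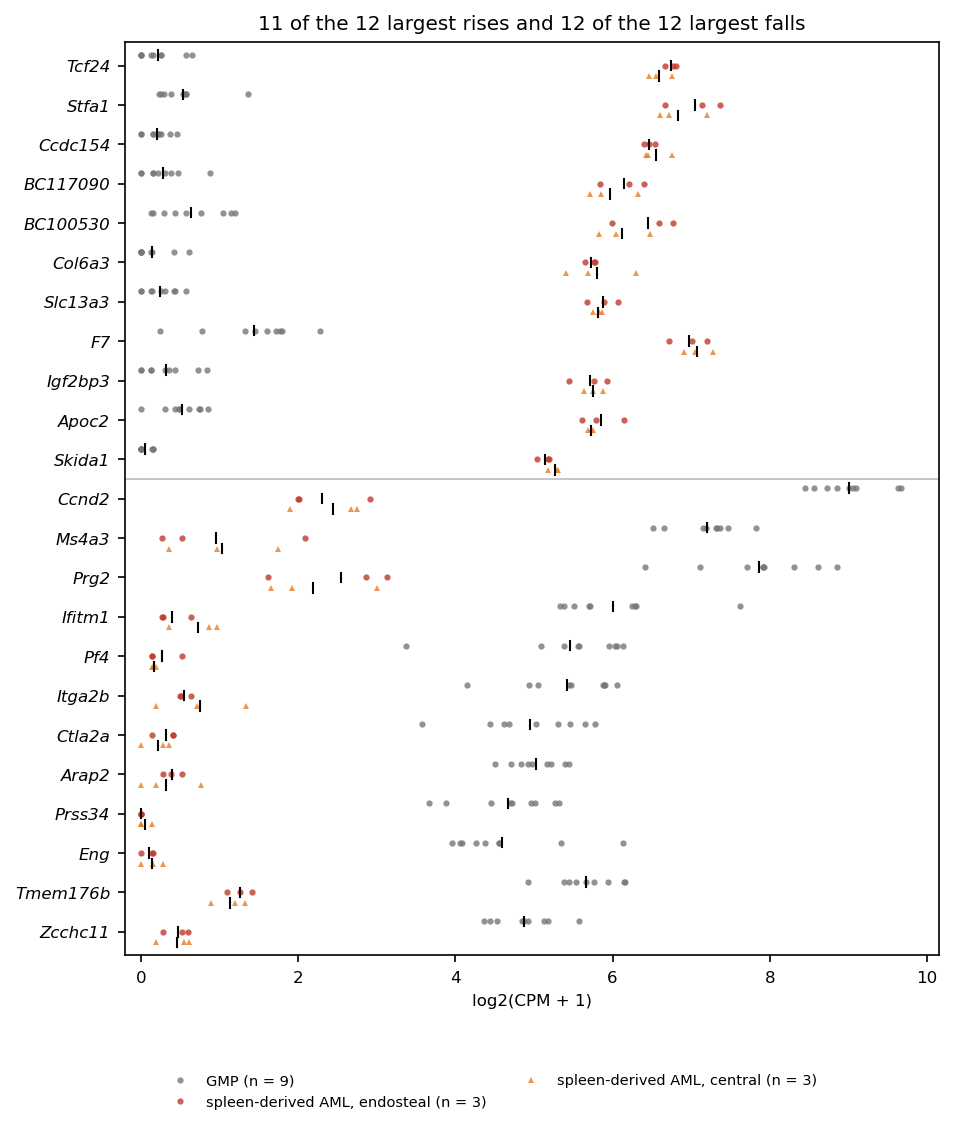
Each point is a library's log2(CPM + 1) for 11 of the 12 largest rises (top) and the 12 largest falls (bottom) among called genes whose groups do not overlap, with black ticks at group means. Tcf24 runs from 87.5 to 111 CPM in AML and from 0 to 0.57 CPM in GMPs, and Ccnd2 from 2.74 to 6.53 CPM in AML and from 347 to 809.9 CPM in GMPs.

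Among the falls, Ccnd2, which encodes cyclin D2, a partner of CDK4 and CDK6 in the G1 phase, had the largest log2 fold change. Ccnd2 was at 2.74, 4.19 and 6.53 CPM in AML and at 347, 513 and 809.9 CPM in GMPs, log2 fold change -6.63 ± 0.21 (SE), adjusted p = 6.41e-14. Ms4a3, a membrane protein that marks GMPs and their progeny, was at 0.208, 0.704 and 3.24 CPM in AML and at 90.7, 158 and 225 CPM in GMPs, log2 fold change -6.21 ± 0.27 (SE), adjusted p = 3.15e-12. For the falls as well, a lack of overlap was a condition of the choice. Arap2, a GTPase-activating protein for Arf, ran from 0 to 0.704 CPM in AML and from 21.7 to 42.7 CPM in GMPs (log2 fold change -4.66, adjusted p = 2.75e-13). Eng, the TGF-β co-receptor endoglin, ran from 0 to 0.215 CPM in AML and from 14.5 to 69.2 CPM in GMPs (log2 fold change -4.47, adjusted p = 2.83e-10). Zcchc11, a terminal uridylyltransferase that acts with Lin28a on let-7 precursors, ran from 0.144 to 0.536 CPM in AML and from 19.7 to 46.6 CPM in GMPs (log2 fold change -4.41, adjusted p = 1.27e-12). All 3 genes were below 1 CPM in every AML library. Ctla2a, a cysteine protease inhibitor, ran from 0 to 0.332 CPM in AML and from 10.9 to 54 CPM in GMPs (log2 fold change -4.68, adjusted p = 1.34e-10). Tmem176b, a membrane protein of myeloid and dendritic cells, ran from 0.865 to 1.66 CPM in AML and from 29.4 to 70.5 CPM in GMPs (log2 fold change -4.46, adjusted p = 8.55e-13). Phgdh, the entry enzyme of serine synthesis, was at 4.86, 6.17 and 6.77 CPM in AML and at 102, 137 and 151 CPM in GMPs, log2 fold change -4.25 ± 0.11 (SE), adjusted p = 1.00e-14. Of the 75-base windows of Phgdh transcript ends, 34% also occur in transcripts of other genes.

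Most of the genes known to be held active by MLL fusions were higher. Of 18 homeobox genes, cofactors and other targets tested, 14 rose and 2 fell (median log2 fold change 1.82, range over the alternatives 1.53 to 2.72), beside 24.9% and 17.1% of all tested genes. Hoxa9, a HOXA gene these leukaemias depend on, was at 107, 132 and 150.4 CPM in AML and at 5.96, 16.9 and 24 CPM in GMPs, log2 fold change 3.01 ± 0.23 (SE), adjusted p = 3.79e-09. Meis1, its DNA-binding partner, was at 51.7, 76.4 and 133 CPM in AML and at 7.64, 18.6 and 32.5 CPM in GMPs, log2 fold change 2.08 ± 0.27 (SE), adjusted p = 2.74e-06. Pbx3, another partner of HOX proteins, was at 134, 153 and 172 CPM in AML and at 4.47, 11 and 15 CPM in GMPs, log2 fold change 3.86 ± 0.20 (SE), adjusted p = 3.00e-11. None of the 3 overlapped between the groups.

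The HOXA genes tested span 77.3 kb of chromosome 6 between Hoxa2 and Hoxa11, and all but Hoxa4 were called higher. Hoxa7 ran from 157 to 195 CPM in AML and from 21.4 to 37.4 CPM in GMPs (log2 fold change 2.59, adjusted p = 5.59e-12). Hoxa10 ran from 9.08 to 11.4 CPM in AML and from 0 to 0.342 CPM in GMPs (log2 fold change 3.26, adjusted p = 7.66e-14). Hoxa5 ran from 19.99 to 29.98 CPM in AML and from 0.397 to 6.08 CPM in GMPs (log2 fold change 2.77, adjusted p = 3.05e-07). The levels of Hoxa2, Hoxa3 and Hoxa11 in AML stayed low, with highest libraries at 2.7, 3.32 and 2.79 CPM. Hoxa4 ran from 3.67 to 5.36 CPM in AML and from 0.397 to 4.66 CPM in GMPs (log2 fold change 0.99, adjusted p = 0.00114). Its fold change lay just under the threshold. Six4, a homeodomain factor, ran from 9.44 to 13.8 CPM in AML and from 0 to 0.163 CPM in GMPs (log2 fold change 3.61, adjusted p = 2.14e-14). Eya1, which encodes a phosphatase and transcriptional co-activator, ran from 32.6 to 61.6 CPM in AML and from 5.69 to 11.1 CPM in GMPs (log2 fold change 2.50, adjusted p = 8.45e-10). Six4 and Eya1 both rose.

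The pair that fell were Mef2c and Prdm16. Mef2c, a MADS-box factor of lymphoid and monocytic fate, was at 8.36, 12.6 and 19.4 CPM in AML and at 57.8, 113 and 179.5 CPM in GMPs, log2 fold change -3.02 ± 0.24 (SE), adjusted p = 4.99e-09. Prdm16, a zinc finger histone methyltransferase, ran from 0 to 0.215 CPM in AML and from 0.695 to 3.75 CPM in GMPs (log2 fold change -1.43, adjusted p = 2.75e-06). Neither overlapped between the groups. Runx2, a RUNX factor, ran from 13.7 to 21.7 CPM in AML and from 15.1 to 24.5 CPM in GMPs (log2 fold change -0.20, adjusted p = 0.141). It was not called. Mecom, which encodes the zinc finger factor EVI1, was under the expression filter, at 0 in all 6 AML libraries and at 0.326 to 1.77 CPM in GMPs.

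**Figure D3:**
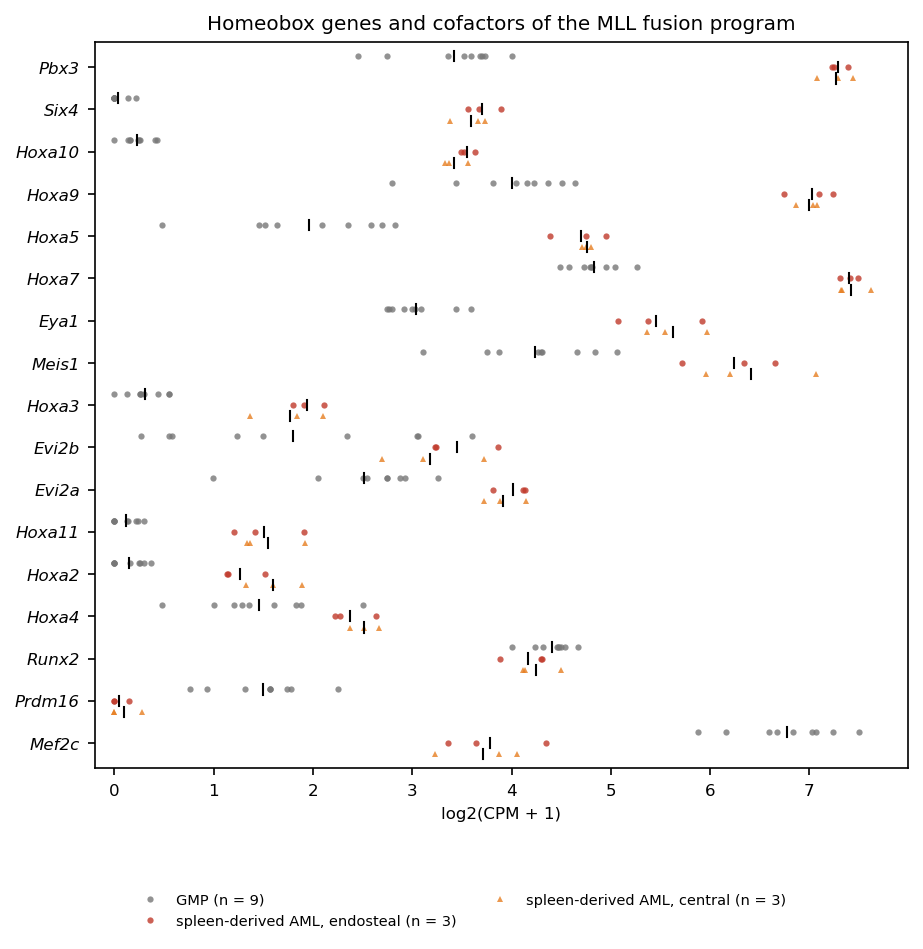
Each point is a library's log2(CPM + 1) for 17 of the 18 tested members of the MLL fusion list, in order of fold change, with ticks at group means. Hoxa9 runs from 107 to 150.4 CPM in AML and from 5.96 to 24 CPM in GMPs, and at the bottom Mef2c from 8.36 to 19.4 CPM in AML and from 57.8 to 179.5 CPM in GMPs.

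The granule proteins of GMPs did not move together. Of 11 tested genes of primary granules and GMP identity, 0 rose and 6 fell (median log2 fold change -1.09, range over the alternatives -1.26 to -1.04). The promoters of 4 of them are shown because their levels parted: Elane and Prtn3 overlapped between the groups, Mpo fell but stayed abundant, and Ms4a3 fell furthest. The sequences are RefSeq's on GRCm38.p6, 250 bases before to 50 after the annotated start, 5′ to 3′ on the gene's strand; capitals mark AGGAAGT, letters that the ETS factor PU.1 is known to bind, searched on both strands.
Mpo, chr11:87793534-87793833 (+): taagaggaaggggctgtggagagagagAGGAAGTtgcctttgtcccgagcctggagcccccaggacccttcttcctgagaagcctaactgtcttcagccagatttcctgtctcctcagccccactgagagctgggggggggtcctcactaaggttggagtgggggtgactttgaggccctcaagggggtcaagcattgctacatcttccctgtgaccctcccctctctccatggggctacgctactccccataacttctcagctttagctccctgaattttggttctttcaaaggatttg
Elane, chr10:79886062-79886361 (+): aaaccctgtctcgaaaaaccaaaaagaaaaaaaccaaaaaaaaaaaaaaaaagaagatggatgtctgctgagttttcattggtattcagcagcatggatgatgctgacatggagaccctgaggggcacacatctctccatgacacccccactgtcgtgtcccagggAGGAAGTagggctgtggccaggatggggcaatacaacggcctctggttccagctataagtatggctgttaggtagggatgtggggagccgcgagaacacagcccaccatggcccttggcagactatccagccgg
Prtn3, chr10:79879417-79879716 (+): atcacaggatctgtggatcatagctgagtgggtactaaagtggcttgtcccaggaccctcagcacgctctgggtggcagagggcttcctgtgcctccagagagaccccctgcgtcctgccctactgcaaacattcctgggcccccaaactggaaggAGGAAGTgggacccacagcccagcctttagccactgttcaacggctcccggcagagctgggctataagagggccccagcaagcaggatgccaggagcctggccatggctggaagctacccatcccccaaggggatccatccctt
Ms4a3, chr19:11640802-11641101 (-): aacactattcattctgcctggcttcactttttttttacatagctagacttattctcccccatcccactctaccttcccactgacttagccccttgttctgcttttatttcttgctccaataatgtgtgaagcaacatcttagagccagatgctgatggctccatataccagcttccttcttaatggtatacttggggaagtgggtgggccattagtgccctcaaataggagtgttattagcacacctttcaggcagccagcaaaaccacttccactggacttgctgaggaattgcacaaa

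AGGAAGT occurs 1 time in the Mpo window, 223 bases before the start, 1 time in that of Elane at 84 bases and 1 time in that of Prtn3 at 94 bases, and not in that of Ms4a3. The letters TTNNGNAA, a core of C/EBP sites searched on both strands, occur 2 times in the Ms4a3 window and 0 times in the other 3. Of all 32851 promoters of this length, 9.35% hold AGGAAGT and 40.7% hold TTNNGNAA; of the 1156 of genes that rose 13.1% hold AGGAAGT, of the 761 of genes that fell 8.41%, and of the 2616 of genes not called 9.79%. TTNNGNAA is in 36.9% of promoters of genes that rose, 31.3% of those that fell and 31.5% of those not called. A match is a stretch of letters and not a measured site.

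Mpo, myeloperoxidase, the main enzyme of primary granules, was at 2602, 2973 and 3451 CPM in AML and at 8832, 10823 and 24674 CPM in GMPs, log2 fold change -2.04 ± 0.23 (SE), adjusted p = 4.88e-07. The groups did not overlap, yet Mpo stayed among the 10 genes with the highest mean CPM in the AML. Elane, neutrophil elastase, was at 456, 626 and 705 CPM in AML and at 384, 521 and 653 CPM in GMPs, log2 fold change 0.20 ± 0.15 (SE), adjusted p = 0.211. Prtn3, proteinase 3, was at 1111, 1337 and 1554 CPM in AML and at 603, 1542 and 1932 CPM in GMPs, log2 fold change -0.04 ± 0.21 (SE), adjusted p = 0.867. The Elane and Prtn3 genes lie 3.1 kb apart on chromosome 10, and neither passed a threshold. Prss57, Cebpe and Fcgr3 also overlapped between the groups, with log2 fold changes of 0.28, 0.13 and -0.12. Irf8, the transcription factor that directs GMPs towards monocytes, was at 54, 67.5 and 79.4 CPM in AML and at 231, 329.7 and 429 CPM in GMPs, log2 fold change -2.28 ± 0.15 (SE), adjusted p = 3.95e-10. Nkg7, a granule membrane protein, ran from 6.48 to 16 CPM in AML and from 156 to 299 CPM in GMPs (log2 fold change -4.09, adjusted p = 8.47e-12). Cst7, a cystatin that inhibits cathepsin C, ran from 91.8 to 140.3 CPM in AML and from 232 to 353 CPM in GMPs (log2 fold change -1.32, adjusted p = 1.34e-07). Calr, the chaperone calreticulin, ran from 685 to 850.3 CPM in AML and from 972 to 2067 CPM in GMPs (log2 fold change -1.09, adjusted p = 8.07e-06). None of the last 4 genes overlapped between the groups.

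Genes of later neutrophils were higher. Of the 25 tested, 17 rose and 0 fell (median log2 fold change 1.59, range over the alternatives 1.42 to 2.02), and their summed level was 1710 to 2620 CPM in the AML libraries and 446 to 795 CPM in the GMP libraries. Cd177, a surface protein of maturing neutrophils, was at 23.8, 37.9 and 49 CPM in AML and at 0, 0.872 and 1.49 CPM in GMPs, log2 fold change 4.51 ± 0.21 (SE), adjusted p = 4.42e-12. S100a9, a calcium-binding alarmin, was at 97.7, 116 and 200.5 CPM in AML and at 1.69, 12.6 and 38.9 CPM in GMPs, log2 fold change 3.60 ± 0.53 (SE), adjusted p = 1.12e-05. S100a8, its partner, ran from 369 to 805 CPM in AML and from 52.8 to 276 CPM in GMPs (log2 fold change 1.86, adjusted p = 6.86e-05). For these genes all AML libraries lay above all GMP libraries, and the GMP libraries spread widely.

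Several secondary granule genes rose as well. Camp, the cathelicidin, ran from 16.1 to 45.8 CPM in AML and from 0 to 10.3 CPM in GMPs (log2 fold change 3.11, adjusted p = 3.60e-05). Ngp, neutrophilic granule protein, ran from 25.4 to 43.2 CPM in AML and from 0.456 to 10.7 CPM in GMPs (log2 fold change 2.75, adjusted p = 1.81e-05). Lcn2, lipocalin 2, ran from 13.5 to 19.2 CPM in AML and from 1.6 to 5.78 CPM in GMPs (log2 fold change 2.25, adjusted p = 1.56e-08). Other late markers stayed at a low level in both groups. Ltf, lactoferrin, ran from 0.865 to 1.55 CPM in AML and from 0.101 to 1.69 CPM in GMPs (log2 fold change 0.47, adjusted p = 0.0569). Ly6g, the surface marker of mature mouse neutrophils, ran from 0.775 to 1.5 CPM in AML and from 0 to 0.704 CPM in GMPs (log2 fold change 0.74, adjusted p = 7.85e-05). Neither was called, the latter for its fold change only. Itgam and Itgb2, which encode the integrin pair CD11b/CD18, both rose without overlap (22.4 to 28.9 against 2.34 to 8.58 CPM and 34.4 to 53.8 against 1.41 to 12.7 CPM). Of the NADPH oxidase, Cyba and Ncf4 rose (log2 fold change 2.02, adjusted p = 1.18e-11; log2 fold change 1.51, adjusted p = 1.62e-09). Cybb, its catalytic subunit, ran from 19.6 to 37 CPM in AML and from 49.6 to 84.3 CPM in GMPs (log2 fold change -0.97, adjusted p = 1.40e-05). It was lower in every AML library than in any GMP library but under the fold threshold. Csf3r, the G-CSF receptor, ran from 2.18 to 3.78 CPM in AML and from 1.79 to 5.87 CPM in GMPs (log2 fold change -0.03, adjusted p = 0.883).

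**Figure D4:**
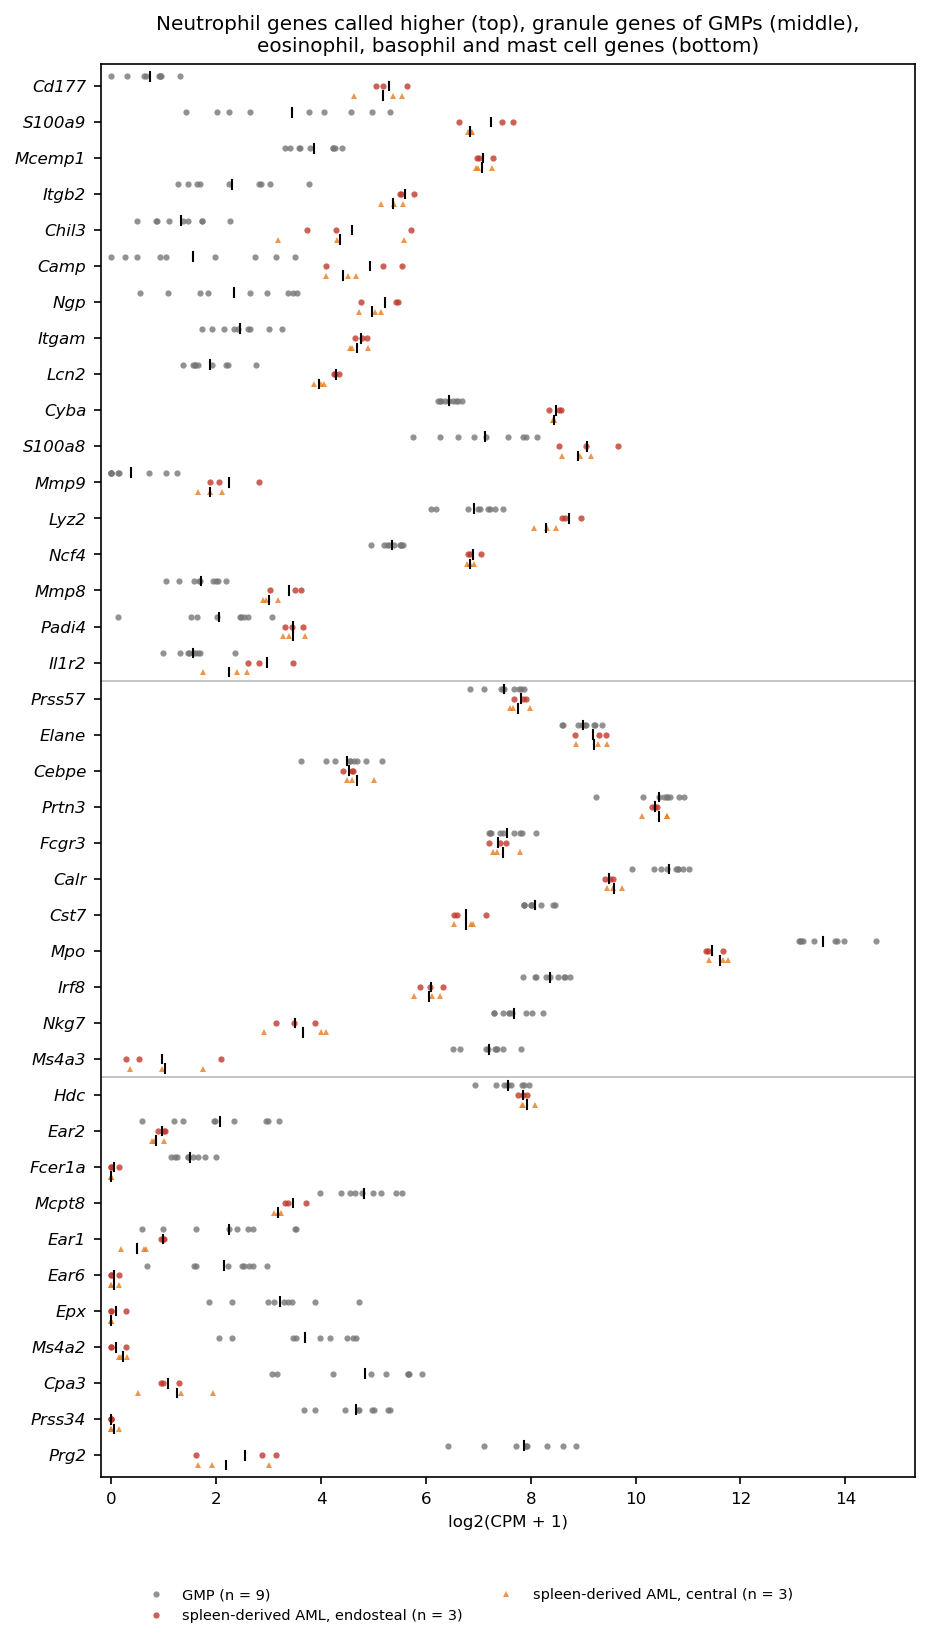
Each point is a library's log2(CPM + 1), with ticks at group means, for the neutrophil genes called higher (top), all tested granule genes of GMPs (middle) and all tested genes of eosinophils, basophils and mast cells (bottom). In the middle block Elane (456 to 705 against 384 to 653 CPM) overlaps between AML and GMPs while Mpo (2602 to 3451 against 8832 to 24674 CPM) does not, and in the bottom block Prg2 runs from 2.08 to 7.78 CPM in AML and from 84.2 to 462 CPM in GMPs.

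Of monocyte and macrophage genes, 11 of 17 rose and 3 fell (median log2 fold change 1.47, range over the alternatives 0.95 to 1.91). The summed level of the list overlapped, at 1190 to 1456 CPM in the AML libraries and 1137 to 1752 CPM in the GMP libraries. Against both marrow-derived batches, 0 members were called higher and 4 lower. Mgl2, a C-type lectin of macrophages and dendritic cells, was at 236, 249 and 263 CPM in AML and at 11.5, 14.4 and 24.6 CPM in GMPs, log2 fold change 3.94 ± 0.15 (SE), adjusted p = 4.58e-13. Adgre1, which encodes F4/80, ran from 21.1 to 30.7 CPM in AML and from 0.584 to 2.78 CPM in GMPs (log2 fold change 3.46, adjusted p = 3.70e-11). Fn1, fibronectin, ran from 23.4 to 43.7 CPM in AML and from 1.09 to 3.24 CPM in GMPs (log2 fold change 3.30, adjusted p = 4.80e-11). Cd68, a lysosomal glycoprotein of macrophages, ran from 55.8 to 64.8 CPM in AML and from 10.6 to 15.1 CPM in GMPs (log2 fold change 2.22, adjusted p = 3.71e-12). None of these overlapped between the groups. Ly6c2, the surface marker of inflammatory monocytes, ran from 592 to 796 CPM in AML and from 487 to 939 CPM in GMPs (log2 fold change -0.13, adjusted p = 0.377). Its groups overlapped. Klf4, Cx3cr1 and Apoe fell, the first pair with overlapping groups (log2 fold change -1.73, adjusted p = 3.63e-04; log2 fold change -1.14, adjusted p = 0.00106; log2 fold change -1.25, adjusted p = 5.22e-07), and none of the 3 was called against control set A alone.

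Because the leukaemia was first collected from a spleen, markers of the red pulp macrophages of that organ were counted. Of the 8 listed, 4 were available, without Spic, Treml4, Itgad and Siglec1. Of these, 3 of 4 rose (median log2 fold change 1.40, range over the alternatives 0.91 to 1.97), and their summed level was 111 to 148 CPM in the AML libraries and 12.9 to 43.8 CPM in the GMP libraries. None of the 4 was called higher than in both marrow-derived batches. Vcam1, an adhesion molecule that other cells also make, was at 86.2, 108 and 127 CPM in AML and at 4.67, 13.7 and 32.2 CPM in GMPs, log2 fold change 3.10 ± 0.29 (SE), adjusted p = 6.11e-08. It made up most of the sum. Hmox1, haem oxygenase 1, ran from 2.16 to 6.64 CPM in AML and from 0.186 to 1.55 CPM in GMPs (log2 fold change 1.66, adjusted p = 7.86e-07). Slc40a1, the iron exporter ferroportin, ran from 5.76 to 10.3 CPM in AML and from 1.21 to 7.74 CPM in GMPs (log2 fold change 1.14, adjusted p = 5.93e-04). Cd163, a haemoglobin scavenger receptor, ran from 4.18 to 11.1 CPM in AML and from 1.43 to 5.7 CPM in GMPs (log2 fold change 0.89, adjusted p = 0.00267). The last pair overlapped between the groups, and none of the 4 markers was at 0 throughout a group. The libraries came from cells sorted as GFP+ mTomato+ from tibias and femurs, not from spleen. The part of such macrophages in the result was not tested, and in bulk samples fewer cells of a type and less RNA per cell cannot be told apart.

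Lymphoid genes were few in the table, and 2 of 5 rose and 0 fell (median log2 fold change 0.34, range over the alternatives 0.00 to 1.31); their summed level was 20.6 to 27.6 CPM in the AML libraries and 14.1 to 21.4 CPM in the GMP libraries. Vpreb1, a part of the surrogate light chain of pre-B cells, ran from 12 to 16.2 CPM in AML and from 0.28 to 4.03 CPM in GMPs (log2 fold change 2.03, adjusted p = 6.92e-07). Igll1, the other part, ran from 0.885 to 3.24 CPM in AML and from 0 to 1.4 CPM in GMPs (log2 fold change 1.22, adjusted p = 3.77e-05). Cd79b, a B cell receptor chain, ran from 5.51 to 8.04 CPM in AML and from 9.56 to 15.5 CPM in GMPs (log2 fold change -0.76, adjusted p = 5.86e-05). The surrogate light chain genes were higher and Cd79b was lower without passing the fold threshold. Gzmb, granzyme B, was at 0 in all 6 AML libraries and at 0.101 to 2.5 CPM in GMPs. The part of lymphoid cells in the result was not tested.

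Markers of the granulocytes other than neutrophils fell, with 10 of 11 genes of eosinophils, basophils and mast cells called lower and 0 higher (median log2 fold change -2.11, range over the alternatives -6.05 to -1.34). Their summed level was 237 to 288 CPM in the AML libraries and 320 to 899.7 CPM in the GMP libraries, of which Hdc alone gave 215 to 268 CPM in AML. Prg2, the eosinophil major basic protein, was at 2.08, 4.55 and 7.78 CPM in AML and at 84.2, 241 and 462 CPM in GMPs, log2 fold change -5.49 ± 0.34 (SE), adjusted p = 2.74e-10. Prss34, a basophil protease, ran from 0 to 0.107 CPM in AML and from 11.7 to 38.8 CPM in GMPs (log2 fold change -4.64, adjusted p = 1.62e-11). Epx, eosinophil peroxidase, ran from 0 to 0.216 CPM in AML and from 2.62 to 25.5 CPM in GMPs (log2 fold change -3.17, adjusted p = 1.39e-07). In most AML libraries the latter pair was at or near 0. Ms4a2, the β chain of the IgE receptor, ran from 0 to 0.235 CPM in AML and from 3.18 to 24.3 CPM in GMPs (log2 fold change -3.54, adjusted p = 1.88e-07). Cpa3, the mast cell carboxypeptidase, ran from 0.432 to 2.82 CPM in AML and from 7.34 to 59.9 CPM in GMPs (log2 fold change -3.67, adjusted p = 9.54e-07). Hdc, which makes histamine, ran from 215 to 268 CPM in AML and from 121 to 248 CPM in GMPs (log2 fold change 0.31, adjusted p = 0.0467). Hdc was the exception of the list, with overlapping groups and no call.

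Of megakaryocyte genes, 1 of 9 rose and 6 fell (median log2 fold change -1.65, range over the alternatives -4.03 to -0.90; median -1.72 with Gp5, which was at 0 in all AML libraries, at its bound). Pf4, platelet factor 4, was at 0.104, 0.113 and 0.443 CPM in AML and at 9.32, 46.6 and 69.3 CPM in GMPs, log2 fold change -5.24 ± 0.33 (SE), adjusted p = 3.04e-10. Itga2b, the integrin CD41, was at 0.144, 0.492 and 1.52 CPM in AML and at 16.7, 43.5 and 65.3 CPM in GMPs, log2 fold change -4.77 ± 0.27 (SE), adjusted p = 6.12e-11. Both were below 2 CPM in every AML library. Of erythroid genes, 1 of 12 rose and 6 fell (median log2 fold change -0.99, range over the alternatives -3.76 to -0.43; median -1.19 with genes at 0 in all AML libraries at their bound). Gata1, the factor of erythroid and megakaryocytic cells, ran from 0 to 0.324 CPM in AML and from 1.89 to 5.36 CPM in GMPs (log2 fold change -1.90, adjusted p = 2.23e-08). Aqp1, a water channel, ran from 0 to 0.469 CPM in AML and from 4.38 to 26 CPM in GMPs (log2 fold change -3.80, adjusted p = 2.23e-08). Car1, carbonic anhydrase 1, was at 0 in all AML libraries against 1.21 to 8.76 CPM in GMPs, at least 12-fold lower. The part of megakaryocytic or erythroid cells in the GMP gate was not tested.

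Of stem and progenitor regulators, 2 of 17 rose and 10 fell (median log2 fold change -1.40, range over the alternatives -2.02 to -1.23). Tal1, a bHLH factor of blood stem cells and the erythroid line, was at 0, 0.11 and 0.215 CPM in AML and at 14.3, 16.1 and 19.7 CPM in GMPs, log2 fold change -4.01 ± 0.13 (SE), adjusted p = 4.09e-14. Cd27, a TNF receptor of progenitors and lymphocytes, ran from 0.432 to 2.31 CPM in AML and from 23.3 to 52.5 CPM in GMPs (log2 fold change -4.36, adjusted p = 3.34e-12). Bcl11a, a zinc finger repressor, ran from 0.648 to 1.61 CPM in AML and from 14.6 to 50.7 CPM in GMPs (log2 fold change -4.01, adjusted p = 2.35e-11). In all 3 the lowest GMP library lay above the highest AML library. Hlf, a stem cell bZIP factor, ran from 0.208 to 0.996 CPM in AML and from 6.69 to 11.3 CPM in GMPs (log2 fold change -2.76, adjusted p = 1.01e-10). Cd34, a surface marker by which GMPs are commonly sorted, ran from 92.9 to 119 CPM in AML and from 241 to 537 CPM in GMPs (log2 fold change -1.67, adjusted p = 8.80e-08). Kit, the stem cell factor receptor and another such marker, ran from 5.33 to 11.5 CPM in AML and from 10.3 to 40.4 CPM in GMPs (log2 fold change -1.51, adjusted p = 1.18e-04). Of these, only Kit overlapped between the groups. Lmo2 and Ikzf2 were the pair that rose (log2 fold change 1.53, adjusted p = 0.00249; log2 fold change 2.00, adjusted p = 2.24e-07), Lmo2 with overlapping groups.

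Of D cyclins and inhibitors of cyclin-dependent kinases, 5 of 12 rose and 3 fell (median log2 fold change 0.79, range over the alternatives 0.55 to 0.84). Ccnd1, cyclin D1, ran from 3.17 to 6.2 CPM in AML and from 21.2 to 42.2 CPM in GMPs (log2 fold change -2.53, adjusted p = 1.05e-09). Trp53, the p53 gene, ran from 1.73 to 4.34 CPM in AML and from 5.46 to 15.4 CPM in GMPs (log2 fold change -1.29, adjusted p = 1.02e-04). Cdkn1c, the inhibitor p57, was at 5.75, 6.86 and 8.3 CPM in AML and at 0, 0 and 0.467 CPM in GMPs, log2 fold change 2.90 ± 0.12 (SE), adjusted p = 1.76e-12. The D cyclins Ccnd1 and Ccnd2 fell and p57, which GMPs hardly made, rose; Ccnd3 was not analysed here. Cdkn2c, the inhibitor p18, ran from 17.7 to 25.3 CPM in AML and from 3.42 to 8.48 CPM in GMPs (log2 fold change 1.97, adjusted p = 1.39e-08). Cdkn2d and Cdkn2a rose with overlapping groups (log2 fold change 1.46, adjusted p = 0.00715; log2 fold change 1.08, adjusted p = 3.65e-05). Of 11 DNA replication genes tested 1 rose and 2 fell (median log2 fold change 0.47). Of 4 mitotic genes none was called, and Nusap1, a spindle protein, came nearest (18.4 to 34.3 against 37.8 to 71.7 CPM, log2 fold change -0.80, adjusted p = 3.11e-04).

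Of the BCL2 family, caspases and their inhibitors, 7 of 17 rose and 4 fell (median log2 fold change 0.47, range over the alternatives 0.23 to 0.58). Bcl2a1a, Bcl2a1b and Bcl2a1d, copies of an anti-apoptotic gene of myeloid cells, rose with log2 fold changes of 2.23, 1.95 and 2.06; 34.4%, 66.6% and 65.3% of the 75-base windows of their transcript ends occur in another gene, so the values of single copies are uncertain. Casp9, the initiator caspase of the mitochondrial pathway, was at 25.9, 28.9 and 37 CPM in AML and at 3.28, 12.3 and 15.3 CPM in GMPs, log2 fold change 1.51 ± 0.25 (SE), adjusted p = 4.32e-05. Bmf, a pro-apoptotic BH3-only protein, ran from 1.61 to 4.46 CPM in AML and from 0 to 0.715 CPM in GMPs (log2 fold change 1.77, adjusted p = 1.61e-08). Members of both the anti- and the pro-apoptotic kind rose. Bcl2 ran from 44.8 to 62.9 CPM in AML and from 86.7 to 139 CPM in GMPs (log2 fold change -1.01, adjusted p = 1.20e-06). Casp4, an inflammatory caspase, ran from 1.73 to 7.97 CPM in AML and from 8.57 to 21 CPM in GMPs (log2 fold change -1.53, adjusted p = 4.33e-05). Bcl2 passed the fold threshold narrowly.

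Of receptors of cytokines and growth factors, 4 of 18 rose and 5 fell (median log2 fold change 0.03, range over the alternatives -0.17 to 0.58); the median was below 0 with TMM scaling, quantile normalization and rescaling without Gm42418 and small RNAs. Csf2ra, the α chain of the GM-CSF receptor, was at 76.7, 83.5 and 86.4 CPM in AML and at 5.56, 10.6 and 14.4 CPM in GMPs, log2 fold change 2.90 ± 0.17 (SE), adjusted p = 1.48e-10. Csf2rb2, a β chain of the same receptor family, ran from 7.51 to 10.4 CPM in AML and from 0.596 to 4.4 CPM in GMPs (log2 fold change 1.56, adjusted p = 1.15e-05). Both chains rose without overlap. Il6st, the gp130 chain shared by receptors of the IL-6 family, ran from 2.88 to 4.57 CPM in AML and from 9.51 to 20.55 CPM in GMPs (log2 fold change -1.86, adjusted p = 1.98e-08). Il1rl1, the IL-33 receptor of mast cells, ran from 0 to 0.221 CPM in AML and from 0.496 to 3.04 CPM in GMPs (log2 fold change -1.29, adjusted p = 3.80e-05). Both of these fell.

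Of chemokines and their receptors, 3 of 10 rose and 3 fell (median log2 fold change -0.22, range over the alternatives -0.88 to 0.42). Cxcr4, the receptor that retains blood cells in marrow, was at 265, 348 and 421 CPM in AML and at 28.2, 115 and 196 CPM in GMPs, log2 fold change 1.87 ± 0.36 (SE), adjusted p = 1.72e-04. Cxcl12, its ligand, which marrow stroma is known to make, ran from 4.18 to 8.3 CPM in AML and from 0 to 0.357 CPM in GMPs (log2 fold change 2.80, adjusted p = 2.40e-12). Cxcl12 belongs to the stromal list and is not among the 10. Ccl9, a macrophage inflammatory chemokine, ran from 35.7 to 55 CPM in AML and from 79.7 to 151 CPM in GMPs (log2 fold change -1.35, adjusted p = 4.58e-08). Receptor and ligand both rose without overlap in AML cells sorted as DAPI- GFP+ mTomato+, and the part of stromal cells in the Cxcl12 level was not tested. Of adhesion molecules, 8 of 20 rose and 5 fell (median log2 fold change -0.22, range over the alternatives -0.57 to 0.16). Ncam1, neural cell adhesion molecule or CD56, was at 176, 192 and 203 CPM in AML and at 15.5, 23.4 and 31.3 CPM in GMPs, log2 fold change 2.99 ± 0.14 (SE), adjusted p = 6.17e-12. Itgb5, an integrin β chain, ran from 20.8 to 28.2 CPM in AML and from 2.58 to 4.65 CPM in GMPs (log2 fold change 2.57, adjusted p = 5.27e-11). Itga6, a laminin-binding integrin chain, ran from 6.87 to 9.39 CPM in AML and from 39.1 to 59.8 CPM in GMPs (log2 fold change -2.52, adjusted p = 1.14e-11). Ncam1 and Itgb5 rose and Itga6 fell, all without overlap. Cd93, a lectin-like receptor of progenitors and endothelium, ran from 70.4 to 92.3 CPM in AML and from 305 to 434 CPM in GMPs (log2 fold change -2.16, adjusted p = 6.98e-12).

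Of 13 secreted factors and receptors that act on blood vessels, 4 rose and 5 fell (median log2 fold change -0.55, range over the alternatives -1.07 to -0.28). The neuropilins, co-receptors for VEGF and semaphorins, moved apart. Nrp2 was at 15.4, 20.1 and 20.9 CPM in AML and at 1.19, 3.42 and 4.83 CPM in GMPs, log2 fold change 2.32 ± 0.20 (SE), adjusted p = 1.47e-08. Nrp1 was at 0.322, 0.579 and 1.06 CPM in AML and at 6.43, 10.08 and 11.7 CPM in GMPs, log2 fold change -2.63 ± 0.17 (SE), adjusted p = 5.03e-10. Pgf, placental growth factor, ran from 1.87 to 4.18 CPM in AML and from 0 to 0.596 CPM in GMPs (log2 fold change 1.62, adjusted p = 2.82e-08). Nrp2 and Pgf thus rose while Nrp1 fell. Angpt1, the TIE2 ligand that steadies vessels, ran from 0.934 to 3.05 CPM in AML and from 10.3 to 42.2 CPM in GMPs (log2 fold change -3.46, adjusted p = 2.34e-09). Hgf, hepatocyte growth factor, ran from 0.288 to 1.06 CPM in AML and from 1.49 to 3.42 CPM in GMPs (log2 fold change -1.18, adjusted p = 3.02e-06). The neutrophil metalloproteinases Mmp9 (2.16 to 6.09 against 0 to 1.39 CPM) and Mmp8 (6.44 to 11.3 against 1.05 to 3.58 CPM) rose.

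Of pattern recognition, Fc and lectin receptors, 14 of 30 rose and 4 fell (median log2 fold change 0.87, range over the alternatives 0.49 to 1.30). Clec4a2, an inhibitory lectin, was at 129, 132 and 145 CPM in AML and at 9.73, 14 and 30.4 CPM in GMPs, log2 fold change 3.09 ± 0.20 (SE), adjusted p = 3.24e-10. Tlr6 ran from 18.2 to 29.5 CPM in AML and from 2.55 to 6.34 CPM in GMPs (log2 fold change 2.36, adjusted p = 3.93e-09). Tlr1 ran from 8 to 9.85 CPM in AML and from 0.234 to 1.68 CPM in GMPs (log2 fold change 2.46, adjusted p = 1.42e-09). Both toll-like receptors pair with TLR2 in the sensing of bacterial lipopeptides. Tlr2 ran from 1.58 to 3.73 CPM in AML and from 5.14 to 23.8 CPM in GMPs (log2 fold change -1.51, adjusted p = 5.71e-05). Nlrp3, the inflammasome sensor, ran from 1.3 to 10.5 CPM in AML and from 14 to 42.4 CPM in GMPs (log2 fold change -2.31, adjusted p = 5.26e-06). Tlr2 and Nlrp3 fell without overlap. Of 32 interferon-induced genes 4 rose and 5 fell (median log2 fold change 0.17, range over the alternatives -0.05 to 0.41), with a median below 0 under quantile normalization. Ifitm1, an antiviral membrane protein, was at 0.208, 0.42 and 0.965 CPM in AML and at 39.1, 51.6 and 195 CPM in GMPs, log2 fold change -5.44 ± 0.28 (SE), adjusted p = 2.70e-11. Irf7, the master factor of type I interferon, ran from 6.34 to 9.85 CPM in AML and from 0.466 to 4.24 CPM in GMPs (log2 fold change 1.65, adjusted p = 2.39e-06). Ifitm1 had the largest fold change of the list.

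Immediate early genes were lower, with 0 of 13 called higher and 8 lower (median log2 fold change -1.14, range over the alternatives -1.47 to -0.81). Klf6, a zinc finger factor of this class, was at 105, 210.4 and 556 CPM in AML and at 435, 1103 and 1596 CPM in GMPs, log2 fold change -2.24 ± 0.32 (SE), adjusted p = 9.73e-06. Its groups overlapped. Atf3, a stress-induced bZIP factor, ran from 4.69 to 21.9 CPM in AML and from 31.1 to 85.7 CPM in GMPs (log2 fold change -2.18, adjusted p = 4.01e-07). Such genes respond to the handling of cells, and AML and GMPs were isolated in different ways, so isolation and cell type cannot be told apart.

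In metabolism, 8 of 12 genes of cholesterol and fatty acid synthesis rose and 1 fell (median log2 fold change 1.05, range over the alternatives 0.87 to 1.12). Their number called higher ranged from 3 to 8 over the alternatives. Fdps, farnesyl diphosphate synthase, was at 78.2, 89 and 102 CPM in AML and at 26.8, 37 and 45 CPM in GMPs, log2 fold change 1.27 ± 0.12 (SE), adjusted p = 6.63e-08. Sc5d, a late enzyme of sterol synthesis, ran from 20.3 to 30.5 CPM in AML and from 2.28 to 10.8 CPM in GMPs (log2 fold change 1.74, adjusted p = 1.20e-05). Neither enzyme overlapped between the groups. Of genes of serine synthesis, one-carbon metabolism and ATF4 targets, 4 of 8 rose and 2 fell (median log2 fold change 0.54, range over the alternatives 0.00 to 0.58). Asns, asparagine synthetase, ran from 18.8 to 25.1 CPM in AML and from 3.29 to 11.3 CPM in GMPs (log2 fold change 1.75, adjusted p = 4.40e-07). Atf5, a bZIP factor, ran from 39 to 105 CPM in AML and from 7.74 to 21.2 CPM in GMPs (log2 fold change 2.05, adjusted p = 2.18e-06). Psat1, which acts next after Phgdh, ran from 94.4 to 121 CPM in AML and from 75.6 to 127 CPM in GMPs (log2 fold change 0.00, adjusted p = 0.979). Psat1 overlapped between the groups although Phgdh fell.

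Of lysosomal genes, 9 of 24 rose and 1 fell (median log2 fold change 0.62, range over the alternatives 0.46 to 0.70). Cd63, a tetraspanin of lysosomes and granules, was at 1602, 2115 and 2339 CPM in AML and at 221, 519.9 and 611 CPM in GMPs, log2 fold change 2.23 ± 0.23 (SE), adjusted p = 2.21e-07. Man2b1, lysosomal α-mannosidase, ran from 209 to 245 CPM in AML and from 49.9 to 74.4 CPM in GMPs (log2 fold change 1.82, adjusted p = 1.91e-10). Ctsc, the cathepsin that activates granule serine proteases, ran from 6.54 to 10.4 CPM in AML and from 7.14 to 84.5 CPM in GMPs (log2 fold change -1.62, adjusted p = 0.00438). Ctsc was the member that fell, with overlapping groups. Of ribosomal proteins, 2 of 4 rose and 1 fell. Rps4l, a paralogue of Rps4x, ran from 0 to 0.288 CPM in AML and from 7.64 to 31.1 CPM in GMPs (log2 fold change -4.31, adjusted p = 1.34e-10). Rps9, a protein of the small subunit, was at 8165, 8794 and 8972 CPM in AML and at 2479, 4323 and 5108 CPM in GMPs, log2 fold change 1.10 ± 0.17 (SE), adjusted p = 1.57e-05. Rps4l was at or near 0 in every AML library.

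Transcription factors of blood lineages went both ways, and 14 of 33 rose and 10 fell (median log2 fold change 0.13, range over the alternatives -0.11 to 1.27), with a median below 0 under TMM scaling and quantile normalization. Satb1, an organiser of chromatin known from T cells and stem cells, was at 229, 258 and 319.6 CPM in AML and at 28.5, 36.8 and 47.4 CPM in GMPs, log2 fold change 2.77 ± 0.12 (SE), adjusted p = 1.76e-12. Id1, an inhibitor of bHLH factors, ran from 32.4 to 40.05 CPM in AML and from 2.48 to 13.6 CPM in GMPs (log2 fold change 2.11, adjusted p = 3.36e-06). Both rose without overlap. Trib1, a pseudokinase that leads C/EBPα to degradation, ran from 40.2 to 137 CPM in AML and from 248 to 404 CPM in GMPs (log2 fold change -2.16, adjusted p = 9.23e-08). Among 18 genes of DNA methylation, histone modification and remodeling 1 rose and 9 fell (median log2 fold change -0.89, range over the alternatives -1.30 to -0.67). Tet1, a methylcytosine oxidase, ran from 0.648 to 1.66 CPM in AML and from 4.38 to 9.01 CPM in GMPs (log2 fold change -1.96, adjusted p = 1.08e-08). Kdm1a, the demethylase LSD1, ran from 3.31 to 5.6 CPM in AML and from 12.5 to 24 CPM in GMPs (log2 fold change -1.75, adjusted p = 3.54e-08). Neither overlapped between the groups. Men1, menin, the partner of MLL fusions, ran from 17.7 to 28.3 CPM in AML and from 34.3 to 82.1 CPM in GMPs (log2 fold change -1.23, adjusted p = 5.18e-06). Kmt2a, the normal MLL gene, ran from 22.7 to 47.8 CPM in AML and from 22.6 to 69.6 CPM in GMPs (log2 fold change -0.36, adjusted p = 0.144). Menin was called lower and Kmt2a was not called.

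The region of the bone gave no gene that passed the test. Between endosteal and central AML of batch 19, 0 of 4935 genes had an adjusted p under 0.05 with limma, and the smallest adjusted p was 1; 74 genes had an unadjusted p under 0.05. On whole reads edgeR, DESeq2 and voom with limma also gave 0, with 69, 57 and 69 genes at an unadjusted p under 0.05. Metaphysis and diaphysis come from the same long bones, but which libraries share an animal is not given, so the regions were compared unpaired. The limma fit also held the 9 GMP libraries, and its SE pools their spread with that of the AML libraries. No fit on the 6 AML libraries alone was made. In this fit, with 3 libraries a region, the median SE of the log2 difference was 0.27, so differences of modest size were not detectable. How far the GMP spread adds to the lack of calls was not tested. Against GMPs, 1070 genes were higher and 753 lower in each region alone, and 441 were called in 1 region only. The genes with the smallest unadjusted p were low. Sirpb1c, a signal-regulatory receptor, read 3.43, 6.12 and 3.13 CPM in endosteal and 1.93, 2.16 and 2.35 CPM in central AML. Its copies Sirpb1b and Sirpb1a came next by p, and the 3 share 37.7 to 47.6% of their 75-base windows with other genes. Dse, which makes dermatan sulfate, read 3.21, 3.32 and 3.13 CPM in endosteal and 1.07, 1.15 and 1.52 CPM in central AML. Usp51, a deubiquitinase, read 0.775, 1.35 and 1.19 CPM and 2.47, 3.03 and 1.41 CPM. The regions did not overlap for these 3 genes, but the genes were chosen by their small p in this same contrast. Their lack of overlap is therefore not a separate result, and none passed the adjustment. Without endosteal library 14, 1 gene passed, Rprml, singled out after its values were seen (endosteal minus central 1.30 ± 0.16 (SE), adjusted p = 0.00278); its 6 libraries ran from 1.41 to 6.97 CPM.

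To see which levels batch 19 shared with other leukaemias of the model, its 6 libraries were compared with the 6 of each marrow-derived batch in 1 limma fit over all 27 libraries and 5160 genes. Against batch 1, 1069 genes (20.7%) were called, and against batch 3, 617 (12%). Higher than in both batches were 190 genes (3.68%), of which 146 had also risen against GMPs, and lower than in both were 165 (3.2%). With 1 donor per batch, these are differences between 3 leukaemias.

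By the smaller of its differences from batch 1 and from batch 3, Skida1 came first among genes higher than in both. Skida1 was at 32 to 38.7 CPM in batch 19, 0 to 0.383 CPM in batch 1 and 0 to 0.204 CPM in batch 3 (log2 difference 5.00 ± 0.11 (SE) from batch 1, adjusted p = 1.74e-22; 5.10 ± 0.11 (SE) from batch 3, adjusted p = 1.06e-22). Mtus2, a microtubule-binding protein, was at 51.5 to 72.1 CPM in batch 19, 0.298 to 1.66 CPM in batch 1 and 0.744 to 2.47 CPM in batch 3 (log2 difference 5.07 ± 0.25 (SE) from batch 1, adjusted p = 9.55e-15; 4.83 ± 0.25 (SE) from batch 3, adjusted p = 4.28e-14). Satb1 was at 229 to 319.6 CPM in batch 19, 14.8 to 39.1 CPM in batch 1 and 7.45 to 25.5 CPM in batch 3 (log2 difference 3.54 ± 0.19 (SE) from batch 1, adjusted p = 5.32e-14; 4.06 ± 0.19 (SE) from batch 3, adjusted p = 5.48e-15). All 3 genes also lay above GMPs without overlap. Frzb, a secreted Wnt antagonist, was at 21.1 to 29.9 CPM in batch 19, 0.224 to 2.94 CPM in batch 1 and 0.612 to 4.34 CPM in batch 3. Lmo7, Xlr, Prps1l1, Ccm2l and Cyp2c44 showed the same order, with batch 19 higher by at least 2.60 on the log2 scale than each batch. Tceal8, a nuclear protein of the TCEAL family, differed from these: GMPs made it (13.1 to 36.7 CPM), batch 19 was at 10.5 to 15 CPM and neither marrow-derived batch exceeded 0.555 CPM.

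Genes named above for other reasons were also called higher than in both. Vpreb1 was at 12 to 16.2 CPM in batch 19, 0.596 to 3.16 CPM in batch 1 and 1.7 to 2.31 CPM in batch 3. Lin28a was at 14.7 to 22.6 CPM in batch 19, 2.32 to 15.6 CPM in batch 1 and 6.12 to 8.24 CPM in batch 3. Cdkn1c was at 5.75 to 8.3 CPM in batch 19, 1.02 to 3.42 CPM in batch 1 and 0.596 to 2.45 CPM in batch 3. For Lin28a the highest library of batch 1 overlapped with batch 19, and for Vpreb1 and Cdkn1c no library did.

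By the same measure Ms4a3 came first among genes lower than in both. Ms4a3 was at 0.208 to 3.24 CPM in batch 19, 26.1 to 121 CPM in batch 1 and 36.5 to 66.3 CPM in batch 3 (log2 difference -4.92 ± 0.35 (SE) from batch 1, adjusted p = 1.24e-11; -4.75 ± 0.35 (SE) from batch 3, adjusted p = 6.83e-11). Ccnd1 was at 3.17 to 6.2 CPM in batch 19, 53.3 to 207 CPM in batch 1 and 18.4 to 62.5 CPM in batch 3 (log2 difference -4.48 ± 0.27 (SE) from batch 1, adjusted p = 6.06e-13; -2.66 ± 0.27 (SE) from batch 3, adjusted p = 2.35e-08). Prdm16 was at 0 to 0.215 CPM in batch 19, 4.55 to 15.5 CPM in batch 1 and 6.31 to 11.6 CPM in batch 3 (log2 difference -3.51 ± 0.22 (SE) from batch 1, adjusted p = 1.07e-12; -3.24 ± 0.22 (SE) from batch 3, adjusted p = 1.33e-11). These 3 genes had also fallen against GMPs. Ly6k, a GPI-anchored protein, was at 0.519 to 3.05 CPM in batch 19, 27.1 to 135 CPM in batch 1 and 23.4 to 83.9 CPM in batch 3. S100a6, a calcium-binding protein, was at 4.75 to 17.5 CPM in batch 19, 158 to 3735 CPM in batch 1 and 65.5 to 168 CPM in batch 3. Ly6k and S100a6 overlapped between batch 19 and GMPs. GMPs were not tested against the marrow-derived batches. Cpa3, Mndal, Fnbp1l, Stxbp6 and Platr17 were also lower, by at least 2.88 on the log2 scale than each batch. Mef2c, Irf8 and Ccnd2 were called lower than in both as well.

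Some of the largest rises against GMPs were low in batch 1. Tcf24 was at 87.5 to 111 CPM in batch 19, 0.298 to 5.63 CPM in batch 1 and 156 to 302 CPM in batch 3 (log2 difference 5.47 ± 0.28 (SE) from batch 1, adjusted p = 1.96e-14; -1.12 ± 0.28 (SE) from batch 3, adjusted p = 0.00287). Mgl2 was at 236 to 263 CPM in batch 19, 0.746 to 13.5 CPM in batch 1 and 109 to 186 CPM in batch 3. Against batch 3, Mgl2 was not called, and Tcf24 was called lower in batch 19. Stfa1 was at 96.1 to 164 CPM in batch 19, 243 to 713 CPM in batch 1 and 49.2 to 366 CPM in batch 3. Stfa1 was called higher in batch 1 than in batch 19 (log2 difference -1.73 ± 0.23 (SE), adjusted p = 5.79e-07). Of the MLL fusion list, 0 genes were higher and 2 lower than in both batches.

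**Figure D5:**
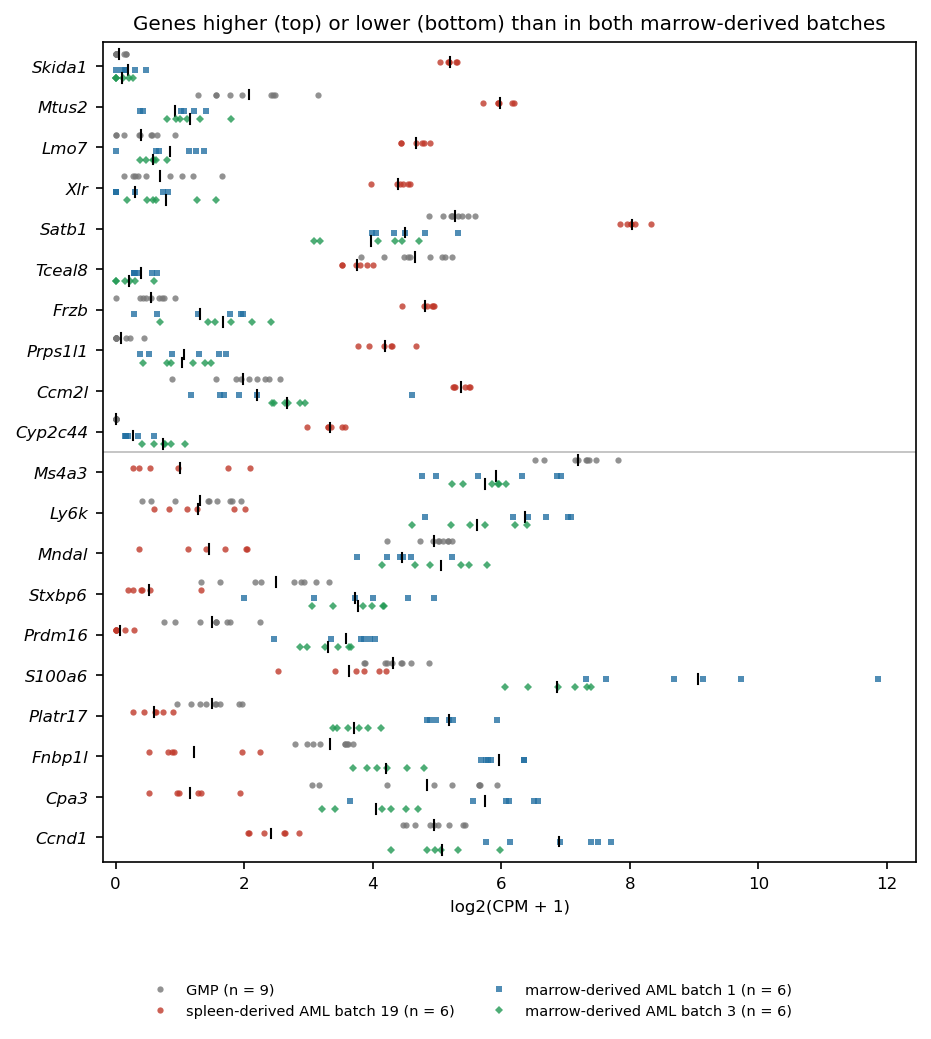
Each point is a library's log2(CPM + 1) in GMPs, spleen-derived AML batch 19 and marrow-derived AML batches 1 and 3, with ticks at group means, for the 10 genes highest (top) and the 10 lowest (bottom) in batch 19 by the smaller of its 2 differences. Skida1 is at 32 to 38.7 CPM in batch 19 and under 1 CPM elsewhere, and Ly6k at 0.519 to 3.05 CPM in batch 19 against 27.1 to 135 CPM in batch 1.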

How the data were processed

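RNA of sorted cells was made into 3′ mRNA-seq libraries (QuantSeq, single-end reads). The authors trimmed reads with Cutadapt 1.9, aligned them to mm10 with HISAT2, counted them with featureCounts and scaled them to CPM, and the deposited table gives CPM values per library; strand setting and annotation are not given in the sources used here. The authors' p-values and adjusted FDR values (voom and limma) and fold changes in the deposited table were not used, beyond the count of genes with an FDR under 0.05. Columns were assigned to groups by name; no other per-sample columns were left out.

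CPM + 1 was log2-transformed and tested with limma 3.58.1 in R 4.3.3 (trend, Benjamini-Hochberg over all tested genes) after a filter of 1 CPM in at least 3 libraries. Whole reads were recovered from CPM steps (within 0.1 read of a whole number) in 24 of 27 libraries; edgeR 4.0.16, DESeq2 1.42.0 and voom on the 6 AML and 7 GMP libraries among them were alternatives, beside other pseudocounts, filters, scalings, control sets and left-out libraries. Floors cover counting error only, and SE values give the spread between libraries in the limma fit. The pipeline was tested on simulated data. Members and gene lists were chosen with earlier results of these data known. Named genes were the 12 largest rises and falls without overlap at a mean of 10 CPM or more in the higher group, leaving out predicted genes and small RNAs that are in no list; up to 6 called members a list and direction, with others to complete families; the 8 smallest p-values; up to 10 genes in each direction that differ from both marrow-derived batches; up to 5 in each direction by the region contrast; and the 10 highest mean CPM. Other list members are given as context. Some genes that these rules select are not reported here. Promoters came from RefSeq (184 of 258 named genes matched) and windows shared between transcripts from GENCODE M21.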

Additional observations from a re-analysis of the deposited data

Results flagged for a closer look

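For 23 of 252 named genes (9.13%), a lone GMP library was set apart from the other 8 on the log2(CPM + 1) scale. The rule was Dixon's test of the gap to its nearest neighbour. Chance gives about 1 gene in 20, and genes are not independent of each other. For Gm26517, Sirpb1a and Sirpb1b the lone value is 1 read and the others are 0. Any read would be flagged there, so the test is empty and the chance rate does not hold. Other lone values under 1 CPM also rest on few reads. Library 9 of control set A accounted for 13 of the 23. It was the lowest for Angpt1 at 10.347 CPM (22.127 to 42.179 CPM in the others), Bcl11a at 14.634 CPM (29.31 to 50.692 CPM in the others), Cd27 at 23.303 CPM (41.153 to 52.464 CPM in the others), H2-Ob at 1.398 CPM (3.623 to 7.828 CPM in the others), Il6st at 9.508 CPM (14.352 to 20.548 CPM in the others), Klf6 at 434.647 CPM (879.649 to 1596.058 CPM in the others), Mndal at 17.71 CPM (25.706 to 36.821 CPM in the others), Pf4 at 9.321 CPM (33.153 to 69.301 CPM in the others), Selp at 0.093 CPM (2.12 to 4.652 CPM in the others) and Vpreb1 at 0.28 CPM (2.622 to 4.025 CPM in the others). It was the highest for Igll1 at 1.398 CPM (0 to 0.326 CPM in the others), Lin28a at 5.313 CPM (0.652 to 1.61 CPM in the others) and Stfa1 at 1.585 CPM (0.179 to 0.489 CPM in the others). Library 23 was the highest for Cdkn1c at 0.467 CPM (0 to 0.163 CPM in the others). Library 24 was the highest for Sirpb1a at 0.116 CPM (0 CPM in the others) and Sirpb1b at 0.116 CPM (0 CPM in the others). Library 25 was the highest for Ifitm1 at 195.444 CPM (39.149 to 77.469 CPM in the others) and Pgf at 0.596 CPM (0 to 0.234 CPM in the others). Library 25 was the lowest for Neu1 at 12.11 CPM (28.68 to 62.555 CPM in the others) and Pfkfb4 at 0.298 CPM (4.866 to 8.762 CPM in the others). Library 27 was the highest for Gm26517 at 0.114 CPM (0 CPM in the others). Library 7 was the highest for Cdkn2a at 0.979 CPM (0 to 0.228 CPM in the others). Library 8 was the highest for Prps1l1 at 0.357 CPM (0 to 0.163 CPM in the others). Library 9 also had the most genes at 0 and the highest Gm42418 level of the GMP libraries, and the part of these in its values was not tested. Without it, 1226 genes were called higher and 900 lower.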

How the results depend on the processing

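The number of genes called against GMPs moved most with the pseudocount: 1246 with a pseudocount of 3 (729 higher and 517 lower), and more with 0.5. With a pseudocount of 3, 644 genes were called against batch 1, 341 against batch 3, 102 higher than both and 93 lower than both; with the central libraries alone 107 were lower than both. On whole reads of 13 libraries, edgeR called 2529 genes (1352 higher and 1177 lower), DESeq2 2530 (1261 and 1269) and voom 2590; limma on the same libraries, an alternative chosen after seeing the data, called 1939. Of the 2070 calls, edgeR shared 1895, DESeq2 1873 and voom 1943, all of the same sign. Leaving out 1 library at a time gave 1981 to 2126 calls against GMPs, 1141 to 1269 higher and 804 to 900 lower; 914 to 1239 against batch 1, 589 to 626 against batch 3, 183 to 201 higher and 152 to 171 lower than both; and 0 to 1 gene between regions, the 1 without endosteal library 14. With scaling, medians of 4 lists changed sign: cytokine receptors -0.104 with TMM scaling, -0.175 with quantile normalization and -0.00271 rescaled without Gm42418 and small RNAs; glycolysis -0.0177 and -0.0564 with TMM and quantile; lineage transcription factors -0.0337 and -0.0311; interferon-induced genes -0.0191 with quantile. Other alternatives also changed signs, in 7 lists in all, with the value farthest from 0 beside each list: cytokine receptors -0.175, glycolysis -0.278 (DESeq2), lineage transcription factors -0.11 (central libraries alone), interferon-induced genes -0.0483 and adhesion molecules 0.163 (control set A alone), chemokines 0.421 (endosteal libraries alone) and stromal genes 1.17 (filter at 5 CPM, 4 genes tested). The causes were not tested. Of the 247 named genes that were called, none changed sign in an alternative that tested it, and 59 lost their call with a pseudocount of 3. The filter at 5 CPM tested 214 of the 258 named genes. With control set A alone 1899 genes were called, and 2228, 2097 and 1947 without set A, B or C. No paired analysis was possible because the columns carry no replicate numbers that AML and GMP libraries share, or that tie an endosteal to a central library of the same animal. Depth limits genes near 1 CPM, a few reads per library.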

Other observations

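Of 56 replication-dependent and variant histone genes 1 rose and 22 fell (median log2 fold change -0.57, range over the alternatives -0.72 to -0.32). The method reads polyadenylated ends, and how far histone transcripts carry them in these cells was not examined. The list includes the pseudogenes Hist1h2al and Hist1h2aj, both called lower. Windows shared between histone copies were not counted, so the values of single copies are uncertain. H1fx, a linker histone, ran from 1.22 to 2.04 CPM in AML and from 15.8 to 64.8 CPM in GMPs (log2 fold change -3.48, adjusted p = 1.16e-09). Hist1h2af, a canonical H2A, ran from 39.8 to 88.6 CPM in AML and from 185 to 825 CPM in GMPs (log2 fold change -2.51, adjusted p = 1.17e-06). Neither overlapped between the groups. Of MYC and nucleolar ribosome assembly genes, 0 of 10 rose and 3 fell (median log2 fold change -0.71, range over the alternatives -0.88 to -0.63). Ftsj3, a methyltransferase of ribosomal RNA, ran from 46.8 to 64.7 CPM in AML and from 116 to 172 CPM in GMPs (log2 fold change -1.26, adjusted p = 4.50e-08). Of genes of the respiratory chain and ATP synthase, 3 of 15 rose and 2 fell (median log2 fold change -0.53, range over the alternatives -0.70 to -0.43). Ndufa10, a complex I subunit, ran from 39.9 to 69 CPM in AML and from 84.7 to 134 CPM in GMPs (log2 fold change -1.08, adjusted p = 2.49e-06). Cox6b2, a testis form of a complex IV subunit, ran from 16.8 to 29.1 CPM in AML and from 8.3 to 13.3 CPM in GMPs (log2 fold change 1.07, adjusted p = 1.75e-06). The first fell and the second rose, both without overlap. Of heat shock proteins and chaperones, 0 of 9 rose and 2 fell (median log2 fold change -0.37, range over the alternatives -0.67 to -0.12). Dnajb4, a HSP40 co-chaperone, ran from 0.865 to 1.72 CPM in AML and from 9.06 to 23.2 CPM in GMPs (log2 fold change -2.63, adjusted p = 1.37e-09). Of 6 glycolysis genes, 3 rose and 1 fell (median log2 fold change 0.12, range over the alternatives -0.28 to 0.29). Ldhb, a lactate dehydrogenase chain, ran from 1.3 to 2.27 CPM in AML and from 13.9 to 24.5 CPM in GMPs (log2 fold change -2.87, adjusted p = 5.28e-12). Aldoc, aldolase C, ran from 5.33 to 8 CPM in AML and from 0.093 to 1.29 CPM in GMPs (log2 fold change 2.11, adjusted p = 1.74e-08). Lactate dehydrogenase B and aldolase C thus moved in opposite directions.

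Of endothelial, stromal, osteoblast and osteoclast genes, 4 of 10 rose and 2 fell (median log2 fold change -0.78, range over the alternatives -3.20 to 1.17; median -0.98 with genes at 0 in all AML libraries at their bound), with a summed level of 26.2 to 33.4 CPM in the AML libraries and 29.9 to 79.8 CPM in the GMP libraries. Col1a2, Emcn, Tek, Postn and Bglap, which mark fibroblasts, vessels and osteoblasts, were at 0 in all 6 AML libraries; Postn was also at 0 in all GMP libraries. Col1a1, another fibroblast collagen, ran from 0.288 to 1.55 CPM in AML and from 0 to 6.5 CPM in GMPs and was at 0 in no AML library. Acp5, the tartrate-resistant phosphatase of osteoclasts and macrophages, ran from 9.03 to 15.1 CPM in AML and from 2.21 to 6.99 CPM in GMPs (log2 fold change 1.27, adjusted p = 5.92e-06). Acta2, smooth muscle actin, ran from 1.88 to 3.54 CPM in AML and from 0 to 0.388 CPM in GMPs (log2 fold change 1.64, adjusted p = 7.06e-09). Both rose without overlap. Cxcl12 and Pdgfrb, a receptor of perivascular cells, also rose (log2 fold change 1.07, adjusted p = 0.00324), and Eng and Tie1, receptors of endothelium, fell. The part of such cells was not tested. Of genes of MHC class II and dendritic cells, 3 of 6 rose and 1 fell (median log2 fold change 1.03, range over the alternatives 0.58 to 1.63). Id2, an inhibitor of bHLH factors, ran from 30.04 to 58.1 CPM in AML and from 6.9 to 19.5 CPM in GMPs (log2 fold change 1.81, adjusted p = 8.35e-07). Cd74, the invariant chain, ran from 0.288 to 3.35 CPM in AML and from 0.326 to 2.78 CPM in GMPs (log2 fold change 0.38, adjusted p = 0.161). Cd74 stayed low with overlapping groups. Of the 4 oncofetal RNA-binding proteins and partners, 2 rose and 2 fell.

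Among the 10 genes with the highest mean CPM in the AML, Tmsb4x, thymosin β4, had the widest spread in GMPs. Tmsb4x, which binds actin monomers, was at 2914, 4469.6 and 5336 CPM in AML and at 21.4, 559 and 2036 CPM in GMPs, log2 fold change 3.71 ± 0.94 (SE), adjusted p = 0.0017. The groups did not overlap. Flt3l, the FLT3 ligand, read 4225 to 5350.4 CPM in AML, but in all 27 libraries its value was 96.2 to 98.9% of that of Rpl13a, its neighbour 1 kb away on chromosome 7. Another annotated gene, Gm45713, shares 75-base windows with both, so this value cannot be given to Flt3l. Of 96 tested genes in the list of small RNAs, 16 rose and 16 fell (median log2 fold change -0.32, range over the alternatives -0.55 to -0.05), and 12 rose and 20 fell without GMP library 9. The list also holds long non-coding and antisense genes, such as Gm26517, Gm26617, Gm26740 and Gm26801, which rose, and Gm26853, which fell. Its counts are therefore not those of small RNAs alone.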
